A study of Homo sapiens with 9 samples.

Results

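Molecular chaperones were followed as a group of 80 genes among the 25084 genes of the table, and 70 of the 80 were among the 14495 genes with enough signal to be tested. The group was defined by gene symbol alone, without expression values. It holds the Hsp70 and Hsp110 genes (HSPA and HSPH), the Hsp90 genes, the mitochondrial Hsp60 and Hsp10 pair (HSPD1 and HSPE1), small heat shock genes (HSPB), the J-proteins (DNAJA, DNAJB and DNAJC), the subunits of the TRiC chaperonin (TCP1 and CCT2 to CCT8) and the prefoldins (PFDN). The 10 members that were too low to test were DNAJA4, DNAJB8, DNAJB13, DNAJC15, DNAJC22, HSPA1L, HSPA6, HSPA12B, HSPB6 and HSPB9.

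Hsp70 proteins bind short unfolded stretches of a protein and release them when ADP is exchanged for ATP. J-proteins deliver clients and start the ATPase cycle, and Hsp110 proteins act as exchange factors. Hsp90 takes over partly folded clients, prefoldin hands newly made actin and tubulin to the ring-shaped TRiC, and the endoplasmic reticulum (ER) and the mitochondrial matrix each hold chaperones of their own. Many cytosolic chaperone genes answer heat shock factors through heat shock elements, ER chaperone genes answer the unfolded protein response through ER stress elements, and MYC family factors bind E-boxes of the form CACGTG.

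Total RNA of LAN5, an established human neuroblastoma line with amplified MYCN, was sequenced 72 h after nucleofection (transfer by electroporation) of 1 control siRNA (siCTR), 1 siRNA against MYCN (siMYCN, titled SiMYCN_2) or 1 siRNA against HAND2 (siHAND2, titled SiHAND2_3), with 3 libraries each. Nothing in the labels says that the 3 libraries of a group came from separate cultures, so p-values measure the spread between these libraries, which may be technical. The line carried no other stated modification, all groups had the same transfection and medium, and each target was addressed by a single siRNA. The series title asks which genes HAND2 and MYCN, a pair of transcription factors with helix-loop-helix domains, regulate in this line.

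Levels are CPM (reads of a gene scaled to a common library total), and depth was 21.1 to 32.7 M reads per library. MYCN itself fell from 1842 ± 54.2 CPM (SD, n = 3) in siCTR to 1289 ± 47.0 CPM in siMYCN and 914 ± 48.4 CPM in siHAND2, so the siHAND2 libraries held less MYCN transcript than the siMYCN libraries. HAND2 stood at 501 ± 13.7 CPM under siCTR, 571 ± 15.9 under siMYCN and 272 ± 7.65 under siHAND2. Of 8 neuroblastoma markers, DBH, CHGA, CHGB, STMN2, ELAVL4 and GAP43 were well expressed, TH was low at a siCTR mean of 2.95 CPM, and INSM1 was under 1 CPM. The 7 immune, endothelial and epithelial markers found summed to 3.76 to 5.62 CPM per library, and PTPRC, PECAM1 and CDH5 were at or near 0. The 7 fibroblast and Schwann markers summed to 90.8 to 97.3 CPM in siCTR, 103 to 112 CPM in siMYCN and 181 to 216 CPM in siHAND2. The rise of the sum in siHAND2 came mostly from PDGFRB, while SOX10, S100B and COL1A1 stayed low. Of 7 neuroblastoma markers tested in limma, CHGB, DBH, ELAVL4, GAP43, STMN2 and TH were called higher in siMYCN. That was 85.7%, against 24.5% of all tested genes. In siHAND2 GAP43 and STMN2 were called higher and DBH and TH lower. The siHAND2 changes of the 7 ranged from -1.01 to 0.95 on the log2 scale. Among the fibroblast and Schwann markers, COL3A1, DCN and PDGFRB were all called higher in siHAND2, and COL3A1 and DCN in siMYCN. The changes of these 3 genes in siHAND2 ranged from 0.98 to 3.07 on the log2 scale. The part of either set of markers in the chaperone results was not tested. In bulk RNA, fewer cells of a type and less RNA per cell cannot be told apart.

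Promoter sequence is shown for the members on which the results turn, taken from RefSeq (GRCh38.p14, 250 bases before to 50 after a start site), which matched 72 of the 80 members with 94 entries. Members without an entry were PFDN2, HSPA12B, DNAJC24, DNAJC1, HSPA14, CCT6A, HSPB11 and DNAJC22. The first set holds an E-box, CACGTG, in capitals, and belongs to HSPD1, HSPE1, HSPA9 and DNAJC12, which fell in both knockdowns. HSPD1 and HSPE1 are transcribed away from each other, so 1 stretch of 104 bases between their start sites (197500274 for HSPD1 and 197500379 for HSPE1 on chromosome 2) serves as the promoter of both.
HSPD1/HSPE1, chr2:197500275-197500378 (plus strand): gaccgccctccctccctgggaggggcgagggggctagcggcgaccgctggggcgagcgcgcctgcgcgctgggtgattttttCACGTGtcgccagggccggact
HSPA9, chr5:138575402-138575521 (minus strand): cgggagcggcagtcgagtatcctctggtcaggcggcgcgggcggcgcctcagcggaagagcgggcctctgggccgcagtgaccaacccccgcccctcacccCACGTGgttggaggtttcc
DNAJC12, chr10:67838189-67838308 (minus strand): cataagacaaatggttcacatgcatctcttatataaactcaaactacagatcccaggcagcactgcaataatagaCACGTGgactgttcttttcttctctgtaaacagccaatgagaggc

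CACGTG, a palindrome that reads the same on both strands, was in 7.26% of 35116 promoter windows of the same length. It was in 8 of the 72 matched member genes (DNAJB9, DNAJC8, DNAJC12, DNAJC16, HSP90B1, HSPA9, HSPD1 and HSPE1), or 8.51% of their 94 entries, near the share of all windows. The HSPD1 and HSPE1 entries hold the same CACGTG, which was thus counted for both genes. DNAJB9, DNAJC8, DNAJC16 and HSP90B1 carried these letters and passed the test in neither comparison with siCTR. The second set shows the ER stress element, CCAAT and CCACG separated by 9 bases on either strand, in the genes of the main ER chaperones, HSPA5 (BiP) and HSP90B1 (GRP94).
HSPA5, chr9:125241344-125241463 (minus strand): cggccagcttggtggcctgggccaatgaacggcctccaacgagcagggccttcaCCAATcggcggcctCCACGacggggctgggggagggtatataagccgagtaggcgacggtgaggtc
HSP90B1, chr12:103930206-103930349 (plus strand): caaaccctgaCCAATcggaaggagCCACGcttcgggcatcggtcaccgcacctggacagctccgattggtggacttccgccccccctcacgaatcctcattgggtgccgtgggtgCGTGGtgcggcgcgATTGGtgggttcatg

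The ER stress element was found in 0.0769% of all windows and in 2.13% of member entries, which were these 2 genes. HSP90B1 held it on both strands. The third set shows the heat shock element, searched as GAANNTTCNNGAA on both strands, in the Hsp90 pair of the cytosol. Capitals mark the fixed letters.
HSP90AB1, chr6:44247751-44247870 (plus strand): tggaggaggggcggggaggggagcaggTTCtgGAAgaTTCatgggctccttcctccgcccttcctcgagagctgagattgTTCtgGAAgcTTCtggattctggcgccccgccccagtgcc
HSP90AA1, chr14:102087067-102087186 (minus strand): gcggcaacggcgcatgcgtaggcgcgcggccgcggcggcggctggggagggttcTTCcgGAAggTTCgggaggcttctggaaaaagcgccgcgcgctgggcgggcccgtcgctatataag

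This heat shock element was in 0.490% of all windows and in 7.45% of member entries, from DNAJA1, DNAJB6, HSP90AA1, HSP90AB1, HSPA6, HSPA8 and HSPD1. HSP90AB1 had 2 matches in its window and HSP90AA1 had 1. A match is a description of the letters only.

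Across the members, levels per kilobase of transcript spanned several orders of magnitude in siCTR. The constitutive Hsp70 HSPA8 led with 1194 CPM per kb, followed by HSP90AB1 with 801, HSPD1 with 506 and HSP90AA1 with 454 CPM per kb. The 8 main TRiC subunits, which form 1 complex in equal numbers, lay between 143 (CCT6A) and 282 (CCT3) CPM per kb. The testis-associated paralogue CCT6B stood at 0.288 CPM per kb. All 80 members together took 1.599% of CPM under siCTR, 1.49% under siMYCN and 1.48% under siHAND2.

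**Figure D1:**
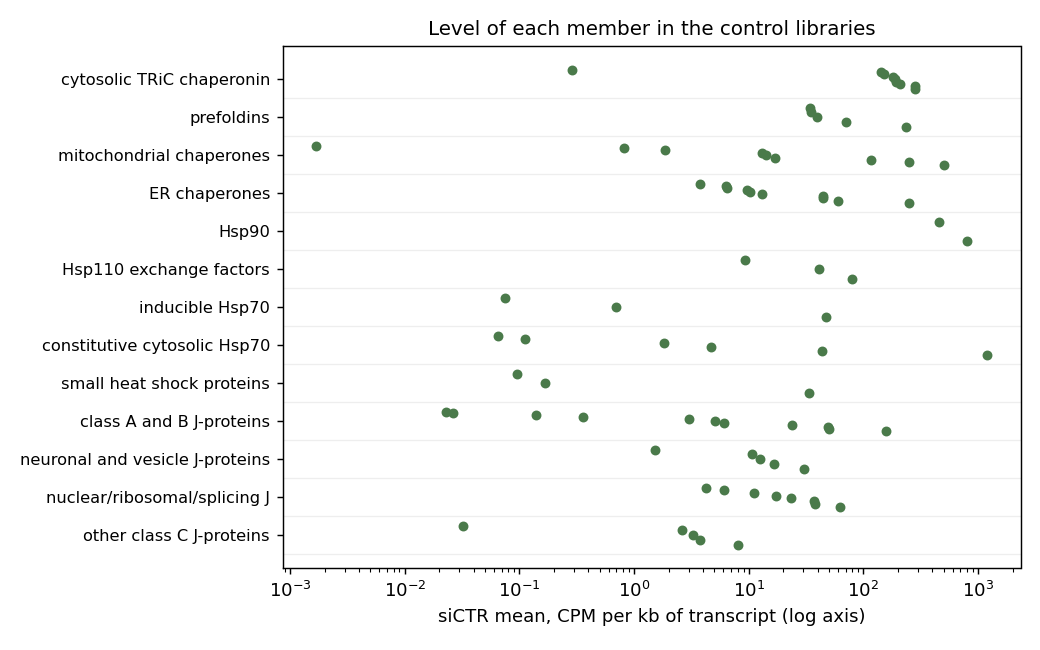
Mean level of each member in the 3 siCTR libraries, in CPM per kb of transcript on a log axis, with 1 point per gene and 1 row per role (79 of 80 members had a transcript length). HSPA8 lies farthest right, and the 8 main TRiC subunits form a narrow group.

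In siMYCN against siCTR, 16 of the 70 tested members rose and 19 fell in limma at an adjusted p under 0.05. Among all tested genes 35.9% were called, 24.5% as higher and 11.4% as lower. The median change of members was 0.03 on the log2 scale, against 0.06 for all tested genes. In siHAND2 against siCTR, 7 members rose and 15 fell, where 29.9% of all genes were called, 18.1% higher and 11.8% lower; the medians were -0.03 for members and 0.04 for all genes. Both comparisons use the same siCTR libraries and are not independent of each other. The direct comparison of siHAND2 with siMYCN called 7 members higher and 9 lower, with 26.9% of all genes called, 11.4% higher and 15.5% lower, and medians of 0.01 for members and -0.01 for all genes. Scaling moved the balance of the calls. With median-ratio rescaling the splits were 6 higher and 28 lower in siMYCN, 3 and 19 in siHAND2, and 11 and 9 in the direct comparison. Quantile normalization gave 7 and 25, 4 and 14, and 13 and 9 for the same comparisons. Leaving out single libraries gave 25 to 38 calls in siMYCN, 11 to 24 in siHAND2 and 13 to 18 in the direct comparison. In siHAND2, 11 calls were made without siCTR replicate 2, and 13 each without siCTR replicate 1, siHAND2 replicate 1 or siHAND2 replicate 2. The 16 rises in siMYCN became 8 without siCTR replicate 1 or 3, 9 without siMYCN replicate 3 and 10 without siCTR replicate 2.

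**Figure D2:**
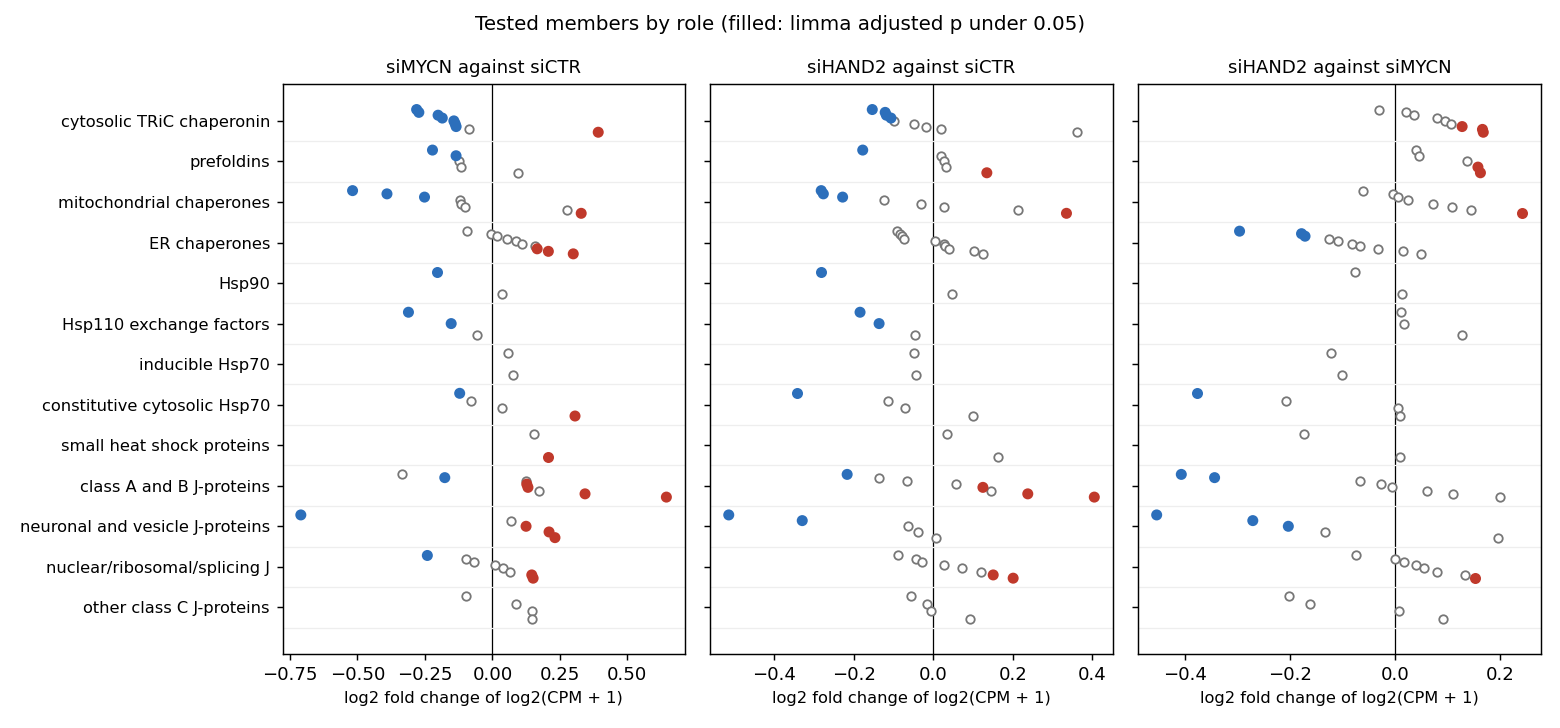
Log2 fold change of every tested member on the log2(CPM + 1) scale, by role, in the 3 comparisons (separate horizontal scales). Filled points passed the limma test, blue for lower and red for higher. The mitochondrial trio (HSPD1, HSPE1 and HSPA9) lies to the left in both comparisons with siCTR, as do the TRiC subunits apart from CCT6B in both and CCT2 in siHAND2, and the ER and class A and B J-proteins spread to the right in siMYCN.

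The core of the mitochondrial folding machine, 3 of the 8 tested mitochondrial members, fell in both knockdowns. That was 37.5% each time, against 11.4% and 11.8% of all tested genes called lower in siMYCN and siHAND2. This core consists of HSPD1, the Hsp60 barrel, HSPE1, the Hsp10 lid, and HSPA9, the matrix Hsp70 (mortalin) that also pulls imported proteins through the inner membrane. HSPD1 (chr2:197486584-197516737) measured 1147, 1139.9 and 1123 CPM under siCTR, 873, 849 and 878 under siMYCN and 922, 887 and 999 under siHAND2. The 3 groups did not overlap, with siMYCN lowest. How often groups separate in this way among all tested genes was not counted, here or for the genes below. HSPE1 (chr2:197500140-197503449) measured 136, 141 and 141 CPM under siCTR, 95.3, 101 and 94.8 under siMYCN and 112, 110.3 and 123 under siHAND2, in the same order and again without overlap. HSPA9 (chr5:138553756-138575416) measured 518, 509 and 499.7 CPM under siCTR, 435, 418 and 429 under siMYCN and 438, 424 and 441 under siHAND2, and here the knockdowns overlapped each other while both stayed below siCTR.

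On the log2(CPM + 1) scale, the change of HSPE1 in siMYCN was -0.52 ± 0.049 (adjusted p = 8.5e-07), the largest fall of the trio, and that of HSPD1 was -0.39 ± 0.045 (adjusted p = 6.7e-06). In siHAND2 the changes were -0.28 ± 0.049 (adjusted p = 0.00043) for HSPE1 and -0.28 ± 0.045 (adjusted p = 0.00019) for HSPD1. HSPA9 changed by -0.25 ± 0.038 (adjusted p = 9.1e-05) in siMYCN and by -0.23 ± 0.038 (adjusted p = 0.00026) in siHAND2. Their errors are limma standard errors throughout. The ratio of HSPD1 to HSPE1 CPM was 8.16 ± 0.272 (SD, n = 3) in siCTR, 8.94 ± 0.479 in siMYCN and 8.13 ± 0.111 in siHAND2, and the lowest siMYCN ratio, 8.39, lay inside the siCTR range. HSPE1 was higher in siHAND2 than in siMYCN by 0.24 ± 0.049 (adjusted p = 0.0013), while HSPD1 missed the threshold at 0.11 ± 0.045 (adjusted p = 0.086) and HSPA9 differed by 0.024 ± 0.038 (adjusted p = 0.69). The direct difference of HSPD1 passed under median-ratio rescaling, at 0.13 (limma adjusted p = 0.039), and without siHAND2 replicate 2, at 0.15 (adjusted p = 0.034). HSPD1 and HSPE1 overlap on opposite strands in the table, and whether counting used the strand is not given in the sources used here.

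The summed CPM of the trio was 1801, 1790.5 and 1764 under siCTR, 1404, 1368 and 1402 under siMYCN and 1472, 1421 and 1564 under siHAND2, or 77.9% and 83.2% of the siCTR mean. Of the other 5 tested mitochondrial members, only DNAJC30, a J-protein of the inner membrane, passed the test. It measured 4.65, 4.34 and 5.12 CPM under siCTR, 6.12, 6.17 and 6.17 under siMYCN and 6.18, 6.13 and 6.24 under siHAND2, so all 6 knockdown libraries lay above all siCTR libraries. Its changes were 0.33 ± 0.084 (adjusted p = 0.006) in siMYCN and 0.33 ± 0.084 (adjusted p = 0.0064) in siHAND2. DNAJC30 overlaps BUD23 on the other strand, whose mean over all libraries was 44.9 CPM. DNAJA3, the main matrix J-protein, had values of -0.12 and -0.12 with adjusted p of 0.06 and 0.062.

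Partners of the matrix chaperones outside the group were counted from lists whose genes were chosen with earlier results of these data known. TRAP1, the mitochondrial Hsp90, measured 236, 243 and 232 CPM under siCTR, 168, 160.3 and 160.0 under siMYCN and 177, 177 and 165 under siHAND2, with changes of -0.54 ± 0.043 (adjusted p = 1.5e-07) in siMYCN and -0.45 ± 0.043 (adjusted p = 5.7e-07) in siHAND2. GRPEL1, the exchange factor of HSPA9, fell to 75.8% of siCTR in siMYCN (adjusted p = 5.6e-06) and to 80.7% in siHAND2 (adjusted p = 7.3e-05), and its paralogue GRPEL2 fell to 89.9% and 87.2%. Both are from a list of 13 Hsp70 exchange and binding partners. Of these, 1 rose (HYOU1) and 2 fell in siMYCN, and 0 rose and 4 fell in siHAND2, with BAG2 and BAG3. In all 23.1% and 30.8% were called, against 35.9% and 29.9% of all tested genes. Called lower were 15.4% and 30.8%, against 11.4% and 11.8%. Among 13 genes of mitochondrial import and proteolysis, 4 fell in siMYCN and 6 fell in siHAND2, or 30.8% and 46.2%. Of all tested genes 11.4% and 11.8% were called lower. No gene of this list rose in limma, also at an unadjusted p under 0.05, where the counts were 0 and 0. The import receptor TOMM20 fell to 80.0% and 84.7% of siCTR, the matrix protease LONP1 to 82.2% and 83.9%, and the disaggregase CLPB passed the test only against siCTR in siHAND2 and in the direct comparison, at 87.8% of siCTR in siHAND2.

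The TRiC chaperonin, which folds actin and tubulin in the cytosol, was lower in siMYCN in 7 of its 8 main subunits, and CCT2 was the one that missed the threshold. In siHAND2 4 of the 8 fell (CCT3, CCT4, CCT7 and CCT8). As shares these were 87.5% and 50%, against 11.4% and 11.8% of all tested genes called lower. The median change over the 8 was -0.16 in siMYCN and -0.10 in siHAND2. CCT4 measured 364, 360.2 and 352 CPM under siCTR, 289, 299 and 303 under siMYCN and 329.9, 329.8 and 340.3 under siHAND2. CCT8 measured 388, 403 and 379 CPM under siCTR, 321, 315 and 326 under siMYCN and 352, 340.1 and 359.9 under siHAND2. In both subunits the groups did not overlap, and siHAND2 lay between siMYCN and siCTR. Their changes in siMYCN were -0.27 ± 0.038 (adjusted p = 4.1e-05) for CCT4 and -0.28 ± 0.04 (adjusted p = 5e-05) for CCT8, and in siHAND2 -0.11 ± 0.038 (adjusted p = 0.044) and -0.15 ± 0.04 (adjusted p = 0.0082).

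CCT7 measured 512, 517 and 518 CPM under siCTR, 450.4, 445 and 449.6 under siMYCN and 483, 468 and 472 under siHAND2, again with siHAND2 between the other groups. CCT6A measured 373, 372 and 366 CPM under siCTR, 319.7, 321 and 336 under siMYCN and 360.1, 357 and 382 under siHAND2, and its siHAND2 libraries overlapped siCTR. TCP1, the alpha subunit, measured 423, 424 and 420.3 CPM under siCTR, 380.1, 381 and 386 under siMYCN and 391, 404 and 431 under siHAND2, and siHAND2 replicate 3 reached above the siCTR range. The siMYCN changes were -0.20 for CCT7, -0.19 for CCT6A and -0.14 for TCP1, with adjusted p of 0.00042, 0.0019 and 0.012. In siHAND2 CCT7 changed by -0.12 ± 0.036 (adjusted p = 0.019), whereas CCT6A had -0.018 ± 0.04 (adjusted p = 0.78) and TCP1 had -0.048 ± 0.041 (adjusted p = 0.41).

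For CCT3 the libraries gave 550.5, 567 and 557 CPM under siCTR, 492, 521 and 509 under siMYCN and 516, 499.8 and 528 under siHAND2. For CCT5 they gave 619.6, 620.0 and 624 CPM under siCTR, 563, 574 and 561 under siMYCN and 581, 563 and 597 under siHAND2. In both, all knockdown libraries lay below siCTR and the knockdowns overlapped each other. CCT3 fell by 0.14 in siMYCN (adjusted p = 0.012) and by 0.12 in siHAND2 (adjusted p = 0.034), and CCT5 fell by 0.13 in siMYCN (adjusted p = 0.011) with -0.099 ± 0.038 (adjusted p = 0.06) in siHAND2. CCT2 measured 361, 369 and 374 CPM under siCTR, 343, 351 and 346 under siMYCN and 372, 358 and 389 under siHAND2, with -0.087 ± 0.04 (adjusted p = 0.1) in siMYCN and 0.018 ± 0.04 (adjusted p = 0.77) in siHAND2. The siMYCN call of CCT3 was lost without siCTR replicate 2 or siMYCN replicate 1. In siHAND2 the call of CCT4 was lost in 11 of 18 alternatives, that of CCT3 in 8, that of CCT7 in 5 and that of CCT8 without siCTR replicate 2.

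**Figure D3:**
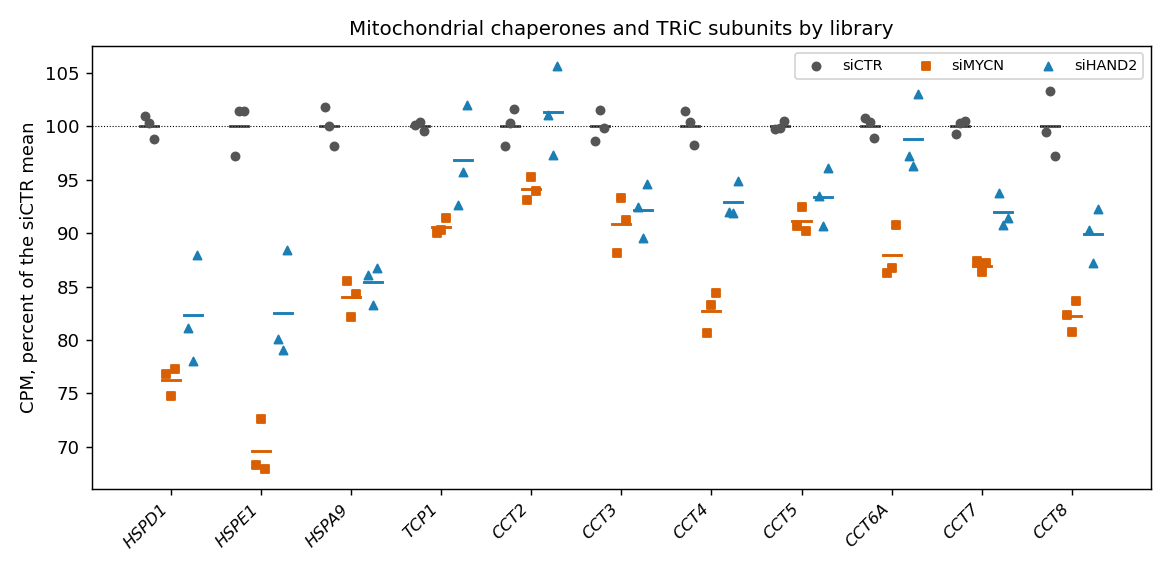
CPM of each library as a percent of the siCTR mean for the mitochondrial trio and the 8 main TRiC subunits; short lines are means of 3 libraries and the vertical axis does not start at 0. The siMYCN squares lie below the siCTR circles for every gene shown, and the siHAND2 triangles of TCP1, CCT2 and CCT6A reach the siCTR range.

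Summed over the 8 subunits, TRiC CPM was 3591, 3633 and 3591 under siCTR, 3158, 3207 and 3217 under siMYCN and 3385, 3320.4 and 3498 under siHAND2, or 88.6% and 94.3% of the siCTR mean. The sum in siHAND2 stayed below every siCTR library and above every siMYCN library. Directly compared, CCT4, CCT6A and CCT8 were higher in siHAND2 than in siMYCN, by 0.17 ± 0.038 (adjusted p = 0.0035), 0.17 ± 0.04 (adjusted p = 0.005) and 0.13 ± 0.04 (adjusted p = 0.025), and the call of CCT8 was lost in 6 of 18 alternatives. CCT6B was the exception in direction, with 0.55, 0.524 and 0.522 CPM under siCTR, 1.37, 1.04 and 0.685 under siMYCN and 1.15, 0.996 and 0.78 under siHAND2 and a change of 0.39 ± 0.14 (adjusted p = 0.042) in siMYCN. Its siCTR values are under 1 CPM, it overlaps LIG3 on the other strand, and its call was lost in 7 of the 13 alternatives in which it was tested. CCT6B reached 1 CPM, the level needed in 3 libraries for testing, only in siMYCN replicates 1 and 2 and siHAND2 replicate 1. It was tested only because knockdown libraries were high, so the filter favoured a rise and its call carries no weight.

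Of the 5 PFDN genes, 2 fell and 0 rose in siMYCN, or 40% lower, against 11.4% of all tested genes. In siHAND2 1 rose and 1 fell, or 20% each, against 18.1% and 11.8%. Their median change was -0.13 in siMYCN and 0.03 in siHAND2. PFDN6 fell in both knockdowns, with 28.1, 29.7 and 28.7 CPM under siCTR, 24.2, 22.9 and 26.8 under siMYCN and 24.9, 25.5 and 25.8 under siHAND2 and changes of -0.22 ± 0.061 (adjusted p = 0.01) and -0.18 ± 0.061 (adjusted p = 0.039). PFDN5, also known as a MYC-binding protein, measured 139, 144 and 140.0 CPM under siCTR, 127, 134 and 123 under siMYCN and 143, 138 and 150.0 under siHAND2. It was lower in siMYCN, at -0.13 ± 0.045 (adjusted p = 0.029), had 0.028 ± 0.045 (adjusted p = 0.68) in siHAND2, and differed between the knockdowns by 0.16 ± 0.045 (adjusted p = 0.013). PFDN1 rose in siHAND2 by 0.13 ± 0.048 (adjusted p = 0.043), from 44.6, 49.1 and 46.9 CPM to 52.0, 51.2 and 51.3 CPM, and this call was lost in 12 of 18 alternatives. PFDN2 was higher in siHAND2 than in siMYCN by 0.16 ± 0.05 (adjusted p = 0.027), and PFDN4 passed no test, with -0.12 in siMYCN and 0.019 in siHAND2. Single libraries mattered: the siMYCN call of PFDN6 was lost without siMYCN replicate 2, the direct call of PFDN5 without siMYCN replicate 3, that of PFDN2 without siHAND2 replicate 2 or siMYCN replicate 2 or 3 and with the 2 groups alone, the siMYCN call of PFDN5 in 6 of 18 alternatives and the siHAND2 call of PFDN6 in 7. The 5 PFDN genes summed to 93.2% of siCTR in siMYCN and 101.9% in siHAND2.

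Of 15 genes listed as partners of TRiC and prefoldin, 2 rose and 3 fell in siMYCN, and 3 rose and 1 fell in siHAND2. In all 33.3% and 26.7% were called, near the 35.9% and 29.9% of all tested genes. The list includes VBP1, a prefoldin subunit that the symbol rule left out, which was among the rises in siHAND2. URI1, a prefoldin-like protein, fell to 82.8% of siCTR in siMYCN and 87.3% in siHAND2. TBCB, a tubulin folding cofactor, rose to 120.2% in siMYCN (adjusted p = 0.0016) and stood at 103% in siHAND2. PDCL3, a phosducin-like partner of TRiC, rose in siHAND2 to 114% (adjusted p = 0.028).

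In the cytosol, the pair of Hsp90 genes parted. HSP90AB1, the constitutive form, measured 2050.0, 2090.0 and 1996 CPM under siCTR, 1777, 1725 and 1815 under siMYCN and 1733, 1611 and 1701 under siHAND2, with every knockdown library below every siCTR library. HSP90AA1, the stress-inducible form, measured 1465, 1446 and 1489 CPM under siCTR, 1470.4, 1509 and 1528 under siMYCN and 1566, 1428 and 1557 under siHAND2, and its groups overlapped. The changes of HSP90AB1 were -0.21 ± 0.044 (adjusted p = 0.0018) in siMYCN and -0.28 ± 0.044 (adjusted p = 0.00015) in siHAND2, against 0.034 ± 0.045 (adjusted p = 0.59) and 0.047 ± 0.045 (adjusted p = 0.46) for HSP90AA1. The ratio of HSP90AB1 to HSP90AA1 CPM was 1.40 ± 0.0528 (SD, n = 3) in siCTR, 1.18 ± 0.0333 in siMYCN and 1.11 ± 0.0179 in siHAND2. This ratio needs no scaling between libraries, and its 3 groups did not overlap. Quantile normalization, which gives all libraries the same distribution, turned the siMYCN value of HSP90AB1 to 0.028 and ended that call. The same setting gave HSP90AA1 0.25 in siMYCN (limma adjusted p = 3.9e-05), a call that no other alternative made in that comparison.

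Of 14 genes listed as Hsp90 cochaperones, 4 fell in each comparison with siCTR, or 28.6%. Among all tested genes 11.4% and 11.8% were called lower. The list includes TRAP1, itself an Hsp90 rather than a cochaperone, which was among the 4 both times. No gene of the list rose in limma, also at an unadjusted p under 0.05 (0 and 0). FKBP4, an immunophilin of steroid receptor complexes, fell to 85.5% and 88.3% of siCTR. AHSA1, an activator of the Hsp90 ATPase, measured 126, 132 and 129 CPM under siCTR, 129, 125 and 127 under siMYCN and 113, 109.8 and 113 under siHAND2, so its libraries were low in siHAND2 and overlapped siCTR in siMYCN. It changed by -0.20 ± 0.04 (adjusted p = 0.0012) in siHAND2 and had -0.018 ± 0.04 (adjusted p = 0.77) in siMYCN.

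HSPA8, the most abundant member, measured 2648, 2764 and 2701 CPM under siCTR, 2419.6, 2516 and 2523 under siMYCN and 2497, 2418 and 2579 under siHAND2, with both knockdowns below siCTR. The change was -0.12 ± 0.045 (adjusted p = 0.045) in siMYCN, a call lost in 9 of 18 alternatives, and -0.11 ± 0.045 (adjusted p = 0.064) in siHAND2. Hsp110 exchange factors fell in 2 of 3 genes in each knockdown, or 66.7%, against 11.4% and 11.8% of all tested genes. HSPA4L measured 100.2, 97.2 and 95.7 CPM under siCTR, 77.8, 77.1 and 80.9 under siMYCN and 79.6, 83.8 and 94.97 under siHAND2, with changes of -0.31 ± 0.056 (adjusted p = 0.00042) and -0.18 ± 0.056 (adjusted p = 0.02). HSPH1 measured 207, 219 and 219.8 CPM under siCTR, 189, 191 and 199.9 under siMYCN and 192, 190.5 and 205 under siHAND2, with changes of -0.15 ± 0.043 (adjusted p = 0.012) and -0.14 ± 0.043 (adjusted p = 0.026). In siHAND2 the calls of HSPA4L and HSPH1 were each lost in 5 of 18 alternatives, among them without siCTR replicate 2, siHAND2 replicate 1 or siHAND2 replicate 2. The siMYCN call of HSPH1 was lost without siCTR replicate 2 or 3 or siMYCN replicate 1. HSPA4 passed neither test, with -0.056 and -0.044.

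HSPA12A, a distant Hsp70 relative, separated the knockdowns. It measured 26.9, 25.2 and 28.4 CPM under siCTR, 27.5, 25.001 and 30.1 under siMYCN and 19.9, 20.4 and 22.6 under siHAND2, so siHAND2 lay below both other groups, which overlapped. Its change was -0.34 ± 0.073 (adjusted p = 0.0021) in siHAND2 against siCTR and -0.38 ± 0.073 (adjusted p = 0.00098) against siMYCN, with 0.035 ± 0.073 (adjusted p = 0.75) in siMYCN. HSPA2, abundant in testis, rose in siMYCN from 3.88, 4.64 and 5.03 CPM to 5.76, 6.48 and 5.21 CPM, a change of 0.31 ± 0.11 (adjusted p = 0.034) that was lost in 7 of 18 alternatives.

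Among stress-inducible genes, HSPA1A, HSPA1B and DNAJB1 did not pass the test in any comparison, and HSPA6 was too low to test. HSPA1B measured 117, 114 and 127 CPM under siCTR, 129, 118 and 130.2 under siMYCN and 119, 122 and 106 under siHAND2, and its near-identical copy HSPA1A measured 1.41, 0.99 and 2.60 CPM under siCTR, 1.55, 2.31 and 1.30 under siMYCN and 1.67, 1.47 and 1.38 under siHAND2. How reads were shared between this pair is not known, and their sum was 119, 115 and 129.7 under siCTR, 130.3, 121 and 131 under siMYCN and 120.4, 123 and 107 under siHAND2, with overlapping groups. HSPA6, also listed as an inducible Hsp70, lay between 0.033 and 0.19 CPM. DNAJB1, the inducible J-protein that works with HSPA1A and HSPA1B, measured 53.2, 54.7 and 53.1 CPM under siCTR, 56.5, 56.4 and 63.0 under siMYCN and 53.3, 56.2 and 58.0 under siHAND2, with 0.12 ± 0.053 (adjusted p = 0.08) in siMYCN and 0.056 ± 0.053 (adjusted p = 0.46) in siHAND2. Heat shock factors HSF1 and HSF2 were the tested ones of 4 listed, and neither passed against siCTR. HSF1 was lower in siHAND2 than in siMYCN, at -0.18 ± 0.061 (adjusted p = 0.04). The small heat shock gene HSPB1 (Hsp27) rose in siMYCN, with 24.7, 28.1 and 25.7 CPM under siCTR, 29.9, 31.0 and 30.1 under siMYCN and 27.3, 29.4 and 24.1 under siHAND2 and a change of 0.21 ± 0.07 (adjusted p = 0.029) that was lost in 7 of 18 alternatives.

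ER chaperones rose in 3 of 10 genes in siMYCN, or 30%, near the 24.5% of all tested genes that were called higher. In siHAND2 none of the 10 passed the limma test, and 0 had an unadjusted p under 0.05 in either direction. HSPA5, the ER Hsp70 BiP, measured 180.3, 180.5 and 164 CPM under siCTR, 194, 209.6 and 202 under siMYCN and 189.7, 163 and 183 under siHAND2. The siMYCN libraries lay above all others, and siHAND2 overlapped siCTR. DNAJB11, a J-protein that brings clients to BiP, measured 98.7, 96.7 and 101 CPM under siCTR, 117, 122 and 126 under siMYCN and 99.5, 94.9 and 102 under siHAND2, in the same arrangement. HSP90B1, the ER Hsp90, measured 707, 689 and 674 CPM under siCTR, 722, 731 and 747 under siMYCN and 661, 621 and 672 under siHAND2, with siMYCN above and siHAND2 below siCTR by small steps.

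Tested against siCTR, siMYCN changed by 0.30 ± 0.044 (adjusted p = 7.5e-05) for DNAJB11, 0.21 ± 0.056 (adjusted p = 0.0082) for HSPA5 and 0.17 ± 0.053 (adjusted p = 0.023) for HSPA13, an Hsp70 of microsomes, with 0.088 ± 0.042 (adjusted p = 0.11) for HSP90B1. In siHAND2 the values were 0.0036 ± 0.044 (adjusted p = 0.96), 0.029 ± 0.056 (adjusted p = 0.73) and -0.083 ± 0.042 (adjusted p = 0.14) for DNAJB11, HSPA5 and HSP90B1. The direct test gave lower levels in siHAND2 than in siMYCN for DNAJB11 at -0.30 ± 0.044 (adjusted p = 9.1e-05), for HSPA5 at -0.18 ± 0.056 (adjusted p = 0.025) and for HSP90B1 at -0.17 ± 0.042 (adjusted p = 0.0055). The siMYCN call of HSPA13 was lost in 7 of 18 alternatives, among them both rescalings and without siCTR replicate 1 or 3 or siMYCN replicate 2 or 3. The siMYCN call of HSPA5 was lost without siCTR replicate 3, the lowest library for this gene, and under quantile normalization, and its direct call was lost in 5 of 18 alternatives. The ER J-proteins DNAJB9, DNAJC3 and DNAJC10 passed no test, with siMYCN values of 0.018, -0.0053 and -0.093.

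Folding enzymes of the ER showed 5 of 14 genes higher in siMYCN (35.7%, against 24.5% of all tested genes). In siHAND2 1 was higher and 6 were lower (42.9% lower, against 11.8%). Between the knockdowns, 8 were lower in siHAND2 than in siMYCN (57.1%, against 15.5%). PDIA3, a disulfide isomerase for glycoproteins, measured 435, 433 and 420.5 CPM under siCTR, 497, 487 and 505 under siMYCN and 435, 411 and 441 under siHAND2. PDIA4, another disulfide isomerase, measured 215, 211 and 216 CPM under siCTR, 234, 225 and 230.5 under siMYCN and 177, 173 and 173 under siHAND2. PDIA3 was thus high in siMYCN alone, while PDIA4 was high in siMYCN and low in siHAND2, with no overlap between any groups. Their direct differences were -0.21 ± 0.04 (adjusted p = 0.00079) and -0.40 ± 0.037 (adjusted p = 4.9e-07). CANX, the lectin chaperone calnexin, fell to 87.5% of siCTR in siHAND2 (adjusted p = 0.0027) and stood at 101% in siMYCN, and CRELD2 rose to 132% in siMYCN (adjusted p = 0.00095).

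Of 14 genes of the unfolded protein response, 1 rose and 1 fell in siMYCN, and 3 rose and 2 fell in siHAND2. Between the knockdowns, 2 were higher and 6 lower in siHAND2 than in siMYCN. The shares called were 14.3%, 35.7% and 57.1%, against 35.9%, 29.9% and 26.9% of all tested genes. PPP1R15A, a phosphatase subunit that restores translation, rose to 138% of siCTR in siMYCN and 119% in siHAND2. Asparagine synthetase, ASNS, fell to 84.8% in siMYCN and rose to 109% in siHAND2. SEL1L, a subunit of the ER degradation ligase, rose to 118% in siHAND2, and the pseudokinase TRIB3 fell to 75.4%. XBP1, a main transcription factor of the response, was lower in siHAND2 than in siMYCN, at -0.19 ± 0.044 (adjusted p = 0.004) and passed neither test against siCTR.

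J-proteins are the largest subgroup, with 42 members and 37 tested. In siMYCN 11 rose and 3 fell, in siHAND2 6 rose and 3 fell, and 1 was higher and 6 lower in siHAND2 than in siMYCN. As shares of the 37, these were 29.7% higher and 8.11% lower in siMYCN and 16.2% and 8.11% in siHAND2, near the 24.5% and 11.4% and the 18.1% and 11.8% of all tested genes. For the direct comparison the shares were 2.70% higher and 16.2% lower, against 11.4% and 15.5% of all tested genes. DNAJC12 had the largest fall of all tested members in both comparisons with siCTR. This J-protein is known to bind the aromatic amino acid hydroxylases, including the tyrosine hydroxylase of catecholamine synthesis. It measured 37.02, 39.5 and 34.6 CPM under siCTR, 20.7, 23.5 and 22.6 under siMYCN and 24.3, 23.3 and 29.7 under siHAND2. All knockdown libraries lay below siCTR, and the knockdowns overlapped through siHAND2 replicate 2, while siHAND2 replicate 3 lay farthest from siMYCN. The changes were -0.71 ± 0.08 (adjusted p = 5.4e-06) in siMYCN and -0.51 ± 0.08 (adjusted p = 0.00014) in siHAND2, with a direct difference of 0.20 ± 0.08 (adjusted p = 0.084).

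DNAJB2, a J-protein rich in neurons that binds ubiquitin chains, had the largest rise in siMYCN. It measured 15.4, 14.8 and 16.8 CPM under siCTR, 24.97, 24.8 and 25.3 under siMYCN and 20.3, 18.6 and 17.2 under siHAND2, so siMYCN was highest and all groups were separate. Its change was 0.64 ± 0.069 (adjusted p = 3.1e-06) in siMYCN and 0.24 ± 0.069 (adjusted p = 0.016) in siHAND2, and siHAND2 was lower than siMYCN, at -0.41 ± 0.069 (adjusted p = 0.00029). Without siCTR replicate 1 or 2 or siHAND2 replicate 1, the siHAND2 call against siCTR was lost. DNAJB5, a cytosolic and nuclear J-protein, rose in both knockdowns, with 17.1, 16.9 and 14.6 CPM under siCTR, 21.3, 20.6 and 20.46 under siMYCN and 23.2, 22.3 and 19.8 under siHAND2 and changes of 0.34 ± 0.074 (adjusted p = 0.0018) and 0.40 ± 0.074 (adjusted p = 0.00058). DNAJB6, a suppressor of polyglutamine aggregation, rose by small amounts in both, 0.13 and 0.12, and lost these calls in 7 and 8 of 18 alternatives.

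Of the 5 neuronal and vesicle J-proteins, 3 (DNAJC5, DNAJC6 and DNAJC13) were lower in siHAND2 than in siMYCN. That was 60%, against 15.5% of all tested genes. DNAJC12 and DNAJC27 were not called between the knockdowns. DNAJC6, the neuronal auxilin that uncoats clathrin vesicles, measured 65.4, 65.8 and 61.4 CPM under siCTR, 71.4, 68.5 and 70.2 under siMYCN and 51.4, 48.9 and 52.3 under siHAND2. Its siHAND2 libraries lay below all others. DNAJA1, a farnesylated partner of HSPA8 from the cytosolic class A and B list, measured 359.8, 358 and 366 CPM under siCTR, 387, 381 and 417 under siMYCN and 296, 304 and 333 under siHAND2, again lowest in siHAND2. DNAJC13, an endosomal J-protein, measured 97.6, 97.1 and 96.7 CPM under siCTR, 109, 116 and 118 under siMYCN and 90.0, 94.3 and 99.6 under siHAND2, with siMYCN above the other groups.

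In siHAND2 against siCTR, DNAJC6 changed by -0.33 ± 0.047 (adjusted p = 6.1e-05) and DNAJA1 by -0.22 ± 0.048 (adjusted p = 0.0029), and DNAJC13 had -0.039 ± 0.047 (adjusted p = 0.57). In siMYCN DNAJC13 rose by 0.23 ± 0.047 (adjusted p = 0.0011). The siMYCN calls of DNAJC6 (0.12 ± 0.047 (adjusted p = 0.05)) and DNAJA1 (0.13 ± 0.048 (adjusted p = 0.049)) sat at the threshold and were lost in 13 and 10 of 18 alternatives. Direct differences were -0.45 ± 0.047 (adjusted p = 1.7e-06) for DNAJC6, -0.34 ± 0.048 (adjusted p = 4.6e-05) for DNAJA1 and -0.27 ± 0.047 (adjusted p = 0.00035) for DNAJC13. DNAJC5, the cysteine string protein of synaptic vesicles, measured 88.4, 87.0 and 86.2 CPM under siCTR, 109, 93.3 and 101 under siMYCN and 94.0, 89.1 and 80.4 under siHAND2. It rose in siMYCN by 0.21 ± 0.061 (adjusted p = 0.013) and differed directly by -0.20 ± 0.061 (adjusted p = 0.02), and each call was lost in 4 of 18 alternatives, both of them without siMYCN replicate 1, its highest library, under quantile normalization and without the intensity trend. The siMYCN call was also lost under median-ratio rescaling and the direct call without siHAND2 replicate 3.

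**Figure D4:**
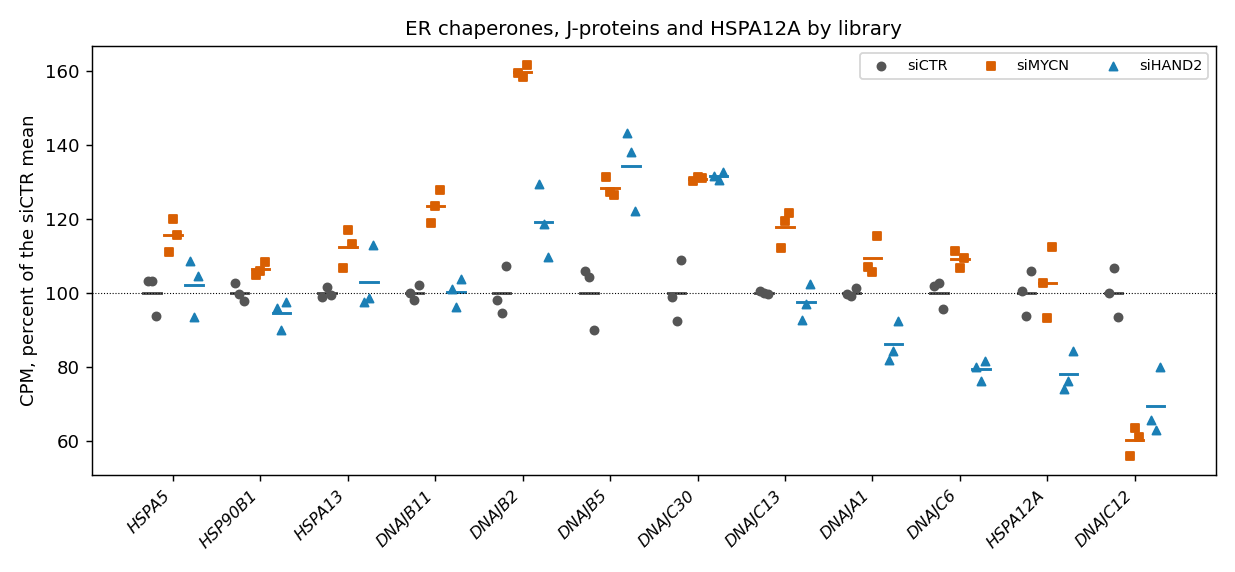
CPM of each library as a percent of the siCTR mean for ER chaperones, J-proteins and HSPA12A; short lines are means of 3 libraries and the vertical axis does not start at 0. ER chaperones, DNAJB2 and DNAJC13 are highest in siMYCN, DNAJA1, DNAJC6 and HSPA12A are lowest in siHAND2, and DNAJC12 is low in both.

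Among J-proteins of the nucleus, ribosome and spliceosome, DNAJC2, the ribosome-bound J-protein that pairs with HSPA14, measured 40.6, 38.4 and 40.4 CPM under siCTR, 33.4, 32.3 and 34.8 under siMYCN and 37.9, 36.1 and 38.1 under siHAND2. Its groups did not overlap. It changed by -0.24 ± 0.052 (adjusted p = 0.0018) in siMYCN, had -0.088 ± 0.052 (adjusted p = 0.22) in siHAND2 and differed directly by 0.15 ± 0.052 (adjusted p = 0.038), a call lost in 7 of 18 alternatives. DNAJC2 overlaps PMPCB and PSMC2 on the other strand. DNAJC17, a nuclear J-protein, changed by 0.20 ± 0.073 (adjusted p = 0.049) in siHAND2, a call lost in 10 of 18 alternatives. DNAJC14, which was kept in this list although it is known as an ER membrane protein, changed by 0.15 ± 0.05 (adjusted p = 0.027) and 0.15 ± 0.05 (adjusted p = 0.032), each lost in 7 of 18 alternatives.

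The direct comparison called 16 of the 70 tested members, or 22.9%, a little under the 26.9% of all tested genes. By direction, 10% were higher and 12.9% lower, against 11.4% and 15.5% of all tested genes. Higher in siHAND2 than in siMYCN were HSPE1, CCT4, CCT6A, CCT8, PFDN2, PFDN5 and DNAJC2. Lower were HSPA5, HSP90B1, DNAJB11, DNAJA1, DNAJB2, DNAJC5, DNAJC6, DNAJC13 and HSPA12A. Of these 16 calls, 10 held in all 18 alternatives run. Against siCTR, 18 of 35 calls in siMYCN and 10 of 22 in siHAND2 held in all 18.

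**Figure D5:**
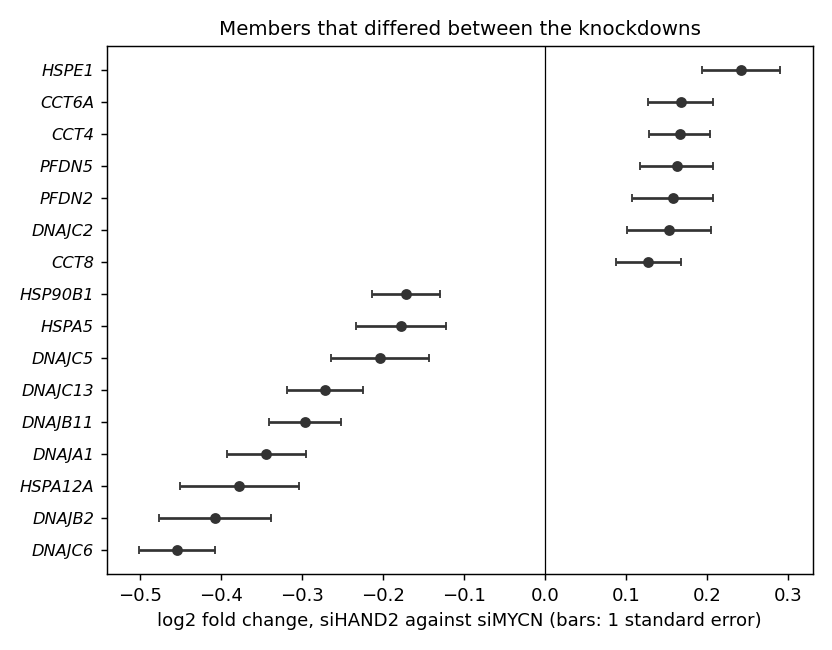
Log2 fold change of siHAND2 against siMYCN for the 16 members called in the direct comparison; points are limma estimates on the log2(CPM + 1) scale and bars are 1 standard error. HSPE1 lies farthest right at 0.24 and DNAJC6 farthest left at -0.45.

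Some values share sequence with other genes. The table lists 23 pseudogene symbols for 9 members, the highest, HSPD1P11, with a mean of 1.52 CPM, so reads could be divided between a member and its copies. TCP1 overlaps ACAT2, PFDN6 overlaps RGL2 and DNAJB11 overlaps TBCCD1 on the opposite strand.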

How the data were processed

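RNA was sequenced in 9 libraries, 3 per siRNA. The authors deposited 1 table of CPM values (reads per gene scaled to a common total) for 25084 genes, and no column was left unused. Reads were aligned with STAR 2.5.1, and Partek was used, per the submitters' processing notes, and the counting rule and its use of strand are not given in the sources used here. These notes name hg19 and GRCh37, but 77 of the 79 members found in the GRCh38 gene table had a start within 5000 bases of it, against 4 of 79 for a GRCh37 annotation, so coordinates are given as GRCh38, counted from 1. Depth, read from the smallest step of low CPM values, was 21.1 to 32.7 M reads per library. Only 79.4% to 80.9% of values up to 20 steps were whole multiples (within 0.02 of a step), so no count test was used.

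Genes with at least 1 CPM in 3 of 9 libraries (14495) were tested on log2(CPM + 1) with limma 3.58.1 in R 4.3.3 (intensity trend, 1 mean per group, all libraries in 1 fit, two-sided), with Benjamini-Hochberg adjustment over all genes tested and a threshold of 0.05. A fold change on this scale understates the change of low genes. Levels between genes were compared per kb of the canonical GENCODE transcript. Always named are the core Hsp70, Hsp90, Hsp60, TRiC and prefoldin genes, DNAJB1 and DNAJC12; added are the 6 largest called rises and falls per comparison whose mean reached 5 CPM, and from each partner list the 2 called genes with the smallest p in each comparison with siCTR. Other genes named (HSPA4, HSPA13, HSPB1, HSPA6, HSF1, HSF2, XBP1, VBP1, DNAJA3, DNAJB6, DNAJB9, DNAJC3, DNAJC5, DNAJC10 and DNAJC27) were chosen after their values were seen. Members followed from the symbol rule, whereas the genes of the lists were chosen with earlier results of these data known. The 18 alternatives were pseudocounts of 0.1 and 5, no low-value filter, a 5 CPM filter, quantile normalization, median-ratio rescaling, the 2 groups of a comparison alone, no intensity trend, a replicate block and each library left out in turn. The model was tested on simulated data with changes larger than that of any tested member. That test therefore does not bear on the small changes or on calls near the threshold.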

Additional observations from a re-analysis of the deposited data

How the results depend on the processing

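Pseudocounts of 0.1 and 5 and both filter changes moved no count of called members by 1.5 times or more. Rescaling changed the rises: with median ratios 6, 3 and 11 members were higher in siMYCN, in siHAND2 and in the direct comparison of the knockdowns, and with quantile normalization 7, 4 and 13, in place of 16, 7 and 7. Without the intensity trend, 9 rose in siMYCN, and in siHAND2 13 were called, 4 higher and 9 lower. Fitting siHAND2 and siMYCN alone gave 4 rises. Leaving out 1 library at a time gave 8 to 16 rises in siMYCN, and in siHAND2 11 to 24 calls, 2 to 6 rises and 8 to 18 falls. The replicate block gave 37, 27 and 22 calls against 35, 22 and 16, with 11 rises in siHAND2 against siMYCN. Neither the labels nor every pair support a pairing: deviations of same-numbered libraries correlated at 0.13 to 0.31 for replicate 1 and at 0.17 to 0.18 for replicate 3, each highest with their own number, but at 0.076, 0.039 and -0.040 for replicate 2. siCTR replicate 2 correlated best with its own number in siMYCN and with replicate 1 in siHAND2 (0.12). Among named members the block also called CCT2, DNAJC12 and HSPD1 between the knockdowns (HSPD1 with a limma adjusted p of 0.047), CCT5, CCT6B and HSPA8 in siHAND2 and DNAJB1 in siMYCN. At least 1 rescaling called CCT2, HSP90AA1, HSP90B1 and PFDN2 in siMYCN, CCT5, HSP90AA1, HSP90B1 and HSPA8 in siHAND2, and CCT2, CCT7, HSP90AA1, HSP90AB1, HSPA4L, HSPD1 and TCP1 between the knockdowns, where the full data as deposited did not.

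Signs turned under median ratios in siMYCN for HSP90AA1 (-0.023) and HSPA12A (-0.021), in siHAND2 for CCT2 (-0.022), DNAJB11 (-0.037), HSPA5 (-0.011), PFDN2 (-0.0071), PFDN4 (-0.020) and PFDN5 (-0.013), and between the knockdowns for DNAJC14 (0.017). Quantile normalization turned DNAJC17 (-0.015), HSP90AB1 (0.028), HSPA12A (-0.015) and HSPA1A (-0.015) in siMYCN, DNAJB11 (-0.017), PFDN2 (-0.00061), PFDN4 (-0.0081) and PFDN5 (-0.013) in siHAND2, and DNAJC14 (0.030), HSP90AA1 (-0.11) and HSPD1 (-0.0046) between the knockdowns, where HSP90AA1 then had a limma adjusted p of 0.014. Of these, only HSP90AB1 was called before rescaling, and the cause was not tested. With 1 library left out, values that crossed 0 were none of them called in the full data, and ranged in siMYCN from -0.030 to 0.10 (HSPA12A) and -0.13 to 0.30 (HSPA1A). In siHAND2 they ranged from -0.012 to 0.047 (CCT2), -0.048 to 0.00069 (CCT6A), -0.021 to 0.033 (DNAJB11), -0.23 to 0.19 (HSPA1A), -0.087 to 0.012 (HSPA1B), -0.016 to 0.092 (HSPA5), -0.083 to 0.074 (PFDN4) and -0.0025 to 0.057 (PFDN5). Between the knockdowns the ranges were -0.0018 to 0.041 (CCT3), -0.16 to 0.043 (CCT6B), -0.036 to 0.028 (DNAJC14), -0.011 to 0.056 (HSP90AA1), -0.21 to 0.050 (HSPA1A), -0.017 to 0.030 (HSPA8), -0.016 to 0.041 (HSPH1) and -0.0045 to 0.10 (PFDN6).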
